A study of Homo sapiens with 2 samples.

Results

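The beta-globin cluster on chromosome 11 was examined in K562 cells, an established human line from a chronic myeloid leukemia that carries erythroid traits. Its genes HBE1, HBG2, HBG1, BGLT3, HBBP1, HBD and HBB were taken by symbol, which gave 7 of the 62700 gene rows of the deposited table. RNA was measured in 2 libraries, 1 from cells with a guide RNA against SMC1A, which encodes a subunit of the cohesin ring, and 1 from cells with a control guide. Per the labels all cells were K562, titled WT, and carried dCas9-KRAB, a nuclease-dead Cas9 joined to a repressor domain, under a genotype label that also reads E50, a term the labels do not explain. Guides came in by lentivirus, puromycin at 1 µg/ml was present from day 2 to day 6, and cells with a high blue fluorescent signal from the guide vector were sorted at harvest. The labels do not name a clone, the promoter behind dCas9-KRAB or the guide sequences.

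Each guide had 1 library, so no test across samples could be made and no p-value is given. Every difference below is between these 2 libraries, and every interval is an exact 95% interval that covers counting error only. Levels are CPM, counts divided by a library size that was scaled with the trimmed mean of M values (TMM), and log2 ratios are SMC1A guide over control guide. The SMC1A library held 16864207 counts and the control library 18349209. SMC1A itself stood at 16.3 CPM with the SMC1A guide and 460.4 CPM with the control guide, a log2 ratio of -4.81. Cells were measured in bulk, so fewer cells of a type and less RNA per cell cannot be told apart. The genes of the cluster within a library are not replicates of a condition. The erythroid genes GATA1, TAL1 and KLF1 were present in both libraries, and CDKN2A, which K562 cells are known to have lost, had 0 counts in both. Of 11 markers of lymphoid, myeloid, fibroblast and epithelial cells, 4 were under 1 CPM in both libraries. The 11 markers summed to 823.9 CPM with the SMC1A guide and 742.3 CPM with the control guide, and KRT8 alone gave 648.8 and 530.3 CPM of these. The other epithelial marker, EPCAM, was lower at 114.5 CPM with the SMC1A guide and 169.7 CPM with the control guide. Of the fibroblast markers, COL1A1 was at 13.2 and 3.65 CPM (233 and 64 counts, 3.62-fold higher, 2.74 to 4.85), while COL1A2 was lower at 2.38 and 3.99 CPM. MS4A1 was at 0 in both libraries, and PTPRC was at 0.794 CPM with the SMC1A guide and 0.171 CPM with the control guide. Their part in the results below was not tested.

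Each hemoglobin molecule joins alpha-type with beta-type chains, and the beta-type chains are encoded by this cluster. The genes lie along the chromosome in the order in which they are used in development, with the embryonic gene HBE1 first, the fetal genes HBG2 and HBG1 next, and the adult genes HBD and HBB last. A distant enhancer, the locus control region, lies beyond HBE1 and activates them by looping. K562 cells are known to make embryonic and fetal globins and little adult beta globin. Cohesin extrudes loops of chromatin and takes part in contacts between enhancers and promoters. Coordinates of the locus control region were not in the annotation used here, so positions were measured from the start of HBE1, the gene nearest to it.

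On the GRCh38 assembly all 7 genes are on the minus strand of chromosome 11. In RefSeq's annotation HBE1 (ENSG00000213931) spans 5268345 to 5269945, HBG2 (ENSG00000196565) 5253188 to 5254781 and HBG1 (ENSG00000213934) 5248269 to 5249857. BGLT3 (ENSG00000260629), a long non-coding RNA gene, spans 5244554 to 5245546, and the pseudogene HBBP1 (ENSG00000229988) 5241954 to 5243592. HBD (ENSG00000223609) spans 5232838 to 5234483 and HBB (ENSG00000244734) 5225464 to 5227071. Counted from the HBE1 start, HBG2 begins 15.2 kb away, HBG1 20.1 kb, BGLT3 24.4 kb, HBBP1 26.4 kb, HBD 35.5 kb and HBB 42.9 kb.

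Of the 7 genes, HBD had a promoter entry in the RefSeq sequence table (GRCh38.p14). It is shown because no other of the 7 genes had an entry there. The 250 bases before its start, chr11:5234484-5234733 on the minus strand, are printed 5′ to 3′ with matches to a CCAAT box, a GATA-type motif and a TATA-like motif in capitals.
HBD: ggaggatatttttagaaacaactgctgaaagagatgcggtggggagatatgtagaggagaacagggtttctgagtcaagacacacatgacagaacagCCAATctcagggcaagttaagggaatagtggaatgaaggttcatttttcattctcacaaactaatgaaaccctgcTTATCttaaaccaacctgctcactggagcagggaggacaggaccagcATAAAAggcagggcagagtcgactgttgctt
Both strands were searched, and no 2 of the matches overlap. CCAAT began 153 bases before the start, GATAA on the opposite strand 78 bases before it and ATAAAA 31 bases before it, while CACCC, the letters of the box that KLF1 binds in the HBB promoter, had 0 matches. Among 35116 promoter windows of the same length, 32.0% held CCAAT, 20.4% GATAA, 14.8% ATAAAA and 54.7% CACCC. These matches describe the letters in the window only.

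On the TMM scale the cluster's RNA differed in makeup between the libraries and hardly in amount. HBE1 was higher with the SMC1A guide, while HBG2, HBG1, BGLT3 and HBBP1 were lower. The HBE1 level was 3594 CPM higher, and the levels of HBG1 and HBG2 together were lower by nearly as much, with a difference of -3603 CPM. Summed over the 7 genes, 213159 counts with the SMC1A guide stood against 212311 with the control guide, which is 12086 and 12101 CPM (log2 ratio -0.00, interval -0.01 to 0.01). The cluster took 1.26% of all counts with the SMC1A guide (1.26 to 1.27) and 1.16% with the control guide (1.15 to 1.16). The near-equal sum depended on the scaling between libraries. The log2 ratio of the sum was 0.13 when libraries were scaled by their totals and 0.33 when the trend of ratios with expression level was removed.

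**Figure D1:**
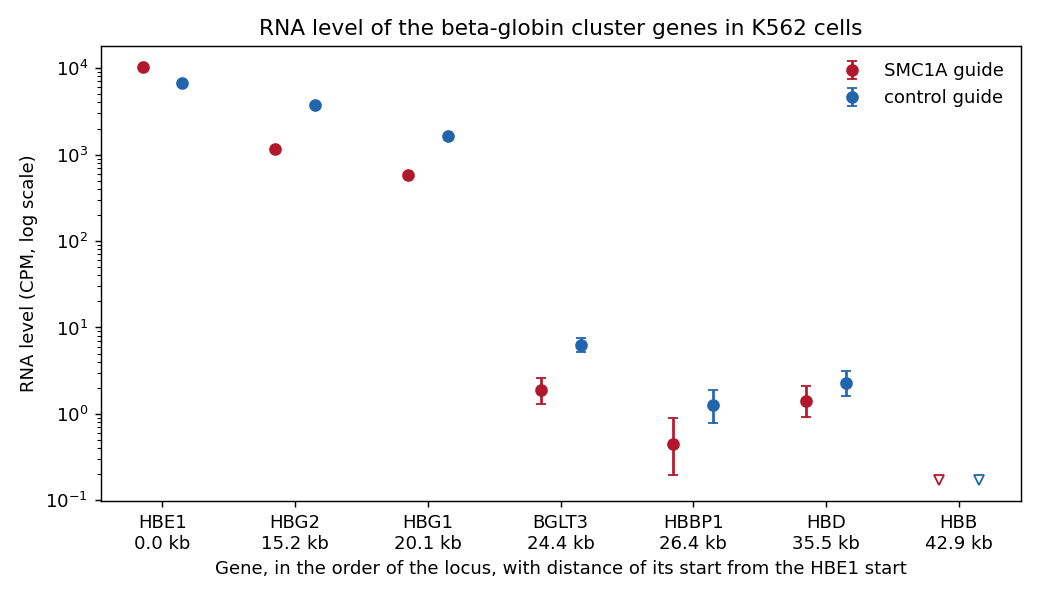
RNA level in CPM (log axis) of each cluster gene with the SMC1A guide (red) and the control guide (blue), in the order of the locus; bars are exact 95% counting intervals and open triangles mark the limit of 3 counts for HBB, which had 0. HBE1 is at 10348 CPM with the SMC1A guide and 6755 CPM with the control guide, and each of the next 5 genes is lower with the SMC1A guide, though the intervals of HBD and of HBBP1 overlap between the libraries.

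HBE1 encodes the embryonic epsilon chain. It had 182513 counts with the SMC1A guide and 118510 with the control guide, or 10348 and 6755 CPM. The level was thus 1.53-fold higher (1.52 to 1.54; log2 ratio 0.62, interval 0.60 to 0.63), below the 2-fold limit used for calls. By level HBE1 ranked 5 among all rows with the SMC1A guide and 8 with the control guide.

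HBG2 and HBG1 encode the fetal gamma chains. HBG2 had 20446 counts with the SMC1A guide and 65146 with the control guide, or 1159 and 3713 CPM, a log2 ratio of -1.68 (-1.70 to -1.66). HBG1 had 10134 and 28482 counts, or 574.6 CPM with the SMC1A guide and 1623 CPM with the control guide, a log2 ratio of -1.50 (-1.53 to -1.47). Both genes were lower, HBG2 by 3.20-fold (3.15 to 3.25) and HBG1 by 2.83-fold (2.76 to 2.89). Their sum was 1734 CPM with the SMC1A guide and 5336 CPM with the control guide (log2 ratio -1.62, interval -1.64 to -1.60; 3.08-fold lower). In rank of level, HBG2 stood at 39 with the SMC1A guide and 13 with the control guide, and HBG1 at 153 and 37.

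How the counts were divided between the fetal copies is uncertain. Their coding sequences, 441 bases without the stop codon, differ at 2 bases (99.5% identity), whereas HBE1 differs from each of them at 73 bases (83.4%). Of the windows of 31 bases in the principal transcript of HBG2, 16.3% occur in no other gene of the GENCODE transcript set, and of those in HBG1 29.6%. HBG1 took 33.1% of the pair's counts with the SMC1A guide (32.6 to 33.7) and 30.4% with the control guide (30.1 to 30.7). The share of HBG1 was thus slightly larger with the SMC1A guide, by more than counting error. Per kilobase of transcript it was 28.1% with the SMC1A guide and 25.6% with the control guide.

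BGLT3 is transcribed from between the fetal and adult genes, and its RNA has been reported to aid gamma-globin expression in human erythroid cells. It had 33 counts with the SMC1A guide and 111 with the control guide, or 1.87 and 6.33 CPM, a log2 ratio of -1.73 (-2.36 to -1.19). This interval contains the ratios of HBG2 and HBG1. There were 926.7 counts of HBG1 and HBG2 per BGLT3 count with the SMC1A guide and 843.5 with the control guide. All windows of 31 bases in BGLT3 (100%) are absent from other genes, so its counts do not rest on a division between copies.

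HBBP1 is a pseudogene related to the beta-type globin genes. It had 8 counts with the SMC1A guide and 22 with the control guide, or 0.454 and 1.25 CPM, a log2 ratio of -1.36 with a wide interval (-2.84 to -0.25). The pseudogene was lower, and its interval of the ratio lay below 0. In HBBP1 82.4% of windows of 31 bases occur in no other gene, and 3.18% also occur in a readthrough gene. Whether its few counts include reads of more abundant relatives was not tested.

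HBD encodes the delta chain, which is part of a minor adult hemoglobin. It had 25 counts with the SMC1A guide and 40 with the control guide (log2 ratio -0.66, interval -1.47 to 0.07). A difference was not detectable at this depth. Over the other scalings and prior counts the ratio lay between -1.17 and -0.54 for HBD and between -2.11 and -1.06 for HBBP1. HBB, which encodes the main adult beta chain, had 0 counts in each library, which allows up to 3 counts, or 0.170 CPM with the SMC1A guide and 0.171 CPM with the control guide. In HBB 81.6% of windows of 31 bases occur in no other gene, as do 81.2% in HBD, so most of either transcript could be told from its relatives.

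Levels of different genes were compared per kilobase of the principal transcript in the GENCODE annotation (the shortest, where several are tagged as principal or, for non-coding genes, as basic). With the SMC1A guide the order was HBE1 at 16799 CPM per kb, HBG2 at 1888, HBG1 at 737.6, HBD at 2.29, BGLT3 at 1.88 and HBBP1 at 1.03. With the control guide it was HBE1 at 10965 CPM per kb, HBG2 at 6047, HBG1 at 2084, BGLT3 at 6.37, HBD at 3.68 and HBBP1 at 2.86. The first 3 genes stood apart by more than counting error in both libraries, although the step from HBG2 to HBG1 rests on the uncertain division between them. Beyond them most intervals overlapped between neighbours. With the SMC1A guide the interval of BGLT3 (1.30 to 2.65) overlapped those of HBD (1.48 to 3.37) and HBBP1 (0.446 to 2.04). With the control guide BGLT3 (5.24 to 7.67) lay above HBD (2.63 to 5.01) and HBBP1 (1.79 to 4.32), which overlapped each other. The principal transcripts of HBD and HBBP1 have 620 and 439 bases, but their exon unions have 1270 and 1454. BGLT3 has 993 bases by either measure. The order of HBD and BGLT3 with the SMC1A guide, and the overlap of HBBP1 with BGLT3, thus depend on the length used.

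Of the 7 genes, 4 had at least 100 counts over both libraries. With the SMC1A guide 3 of these (HBG2, HBG1 and BGLT3) lay below the control by 2-fold or more, and 0 lay above it by 2-fold. BGLT3 reached 100 counts only through the control library, where it had 111 of them, so its place in this count is partly set by the filter. Over all 11319 genes with 100 counts, 2.31% were below by 2-fold (262 genes) and 5.12% above (579 genes). By library totals these were 194 below and 766 above. With at least 20 counts, 6 of the 7 genes could be counted, HBBP1 only through its 22 counts in the control library, and 4 were 2-fold lower and 0 higher, where 3.63% of all 14255 genes with 20 counts were 2-fold lower and 9.55% higher. With at least 500 counts, 2 of 3 members (HBG2 and HBG1) were lower and 0 higher, beside 1.65% lower and 2.36% higher of all 8423 such genes. With 100 counts and the whole interval past 2-fold, 3 members, BGLT3 among them, were lower and 0 higher, beside 1.25% lower and 3.03% higher of all genes. HBG1 and HBG2 are copies and are not independent in these counts.

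Shares within a library need no scaling between libraries. HBE1 made up 85.6% of the cluster's counts with the SMC1A guide (85.5 to 85.8) and 55.8% with the control guide (55.6 to 56.0). HBG1 and HBG2 together made up 14.3% (14.2 to 14.5) with the SMC1A guide and 44.1% (43.9 to 44.3) with the control guide. The remaining 4 genes took 0.0310% with the SMC1A guide and 0.0815% with the control guide. There were 5.97 HBE1 counts per HBG1 and HBG2 count with the SMC1A guide and 1.27 with the control guide, a 4.72-fold difference. Per kilobase of principal transcript the HBE1 share was 86.5% with the SMC1A guide and 57.4% with the control guide.

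**Figure D2:**
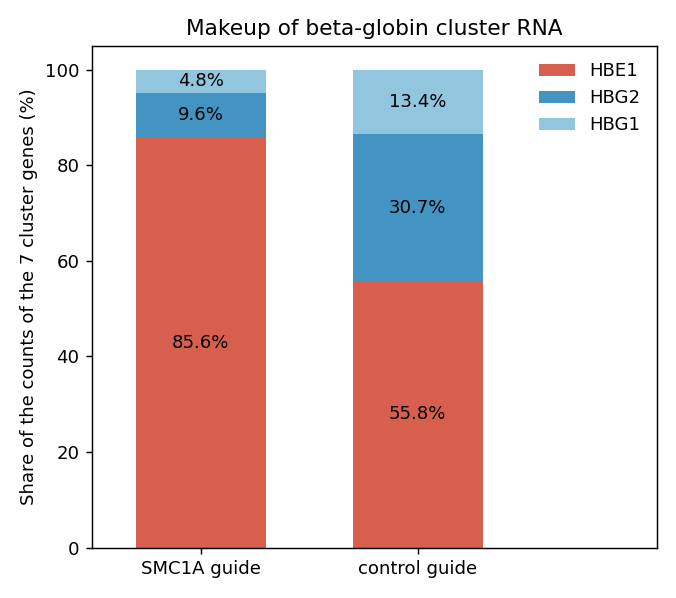
Share of the counts of the 7 cluster genes (%) taken by HBE1, HBG2 and HBG1 in the library with the SMC1A guide (left) and the control guide (right); the other 4 genes are too small to see. HBE1 takes 85.6% with the SMC1A guide and 55.8% with the control guide.

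Ordered by distance, the gene nearest to the locus control region was the one with the higher level, and every gene with counts from 15.2 kb to 26.4 kb beyond it was lower. The log2 ratios ran 0.62 for HBE1, -1.68 for HBG2, -1.50 for HBG1, -1.73 for BGLT3, -1.36 for HBBP1 and -0.66 for HBD. Beyond HBE1 the ratios did not fall further with distance. The intervals of BGLT3 and HBBP1 overlapped those of both fetal genes, and the value farthest from HBE1, that of HBD, was the least negative and had an interval that reached 0. HBB gave no ratio.

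Additional rows of the table overlap the cluster. ENSG00000284931, which has no symbol in the gene-name table and is named AC104389.5 in GENCODE release 29, spans 5248270 to 5254783. GENCODE tags its transcripts as readthrough, and all 651 of its exon bases lie in exons of HBG2 (433) or HBG1 (218). It had 4250 counts with the SMC1A guide and 10464 with the control guide, or 241.0 and 596.4 CPM, a log2 ratio of -1.31 (-1.36 to -1.26). This row was lower like the fetal genes, though less so than either. It held 12.2% of the joint counts of the row, HBG1 and HBG2 with the SMC1A guide (11.9 to 12.6) and 10.1% with the control guide (9.87 to 10.2). With it added, the fetal sum had a log2 ratio of -1.59.

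ENSG00000239920, named AC104389.4 in GENCODE and also without a symbol in the gene-name table, spans 5254392 to 5678434. Of its 5265 exon bases, 781 lie in exons of HBE1, all in a readthrough transcript, and 298 in exons of HBG2. It had 4009 counts with the SMC1A guide and 2283 with the control guide, or 227.3 and 130.1 CPM, a log2 ratio of 0.80 (0.73 to 0.88). It was thus higher like HBE1, and by somewhat more. Of the windows of 31 bases in the HBE1 principal transcript, 88.1% also occur in one of these readthrough genes, so the counts of HBE1 depend on how reads were divided. For every count of ENSG00000239920 there were 45.5 counts of HBE1 with the SMC1A guide and 51.9 with the control guide. With its counts added, HBE1 had a log2 ratio of 0.62, as without them. With both readthrough rows added to the 7 genes, the log2 ratio of the sum was -0.03.

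The surroundings of the cluster were largely silent. Within 500 kb on each side lie 80 other annotated genes, mostly of olfactory receptors, and 56 of them had 0 counts in both libraries, 17 had fewer than 20 counts and 7 had at least 20. Of 61 olfactory receptor genes and pseudogenes there, 49 had 0 counts and 2 reached 20. OR51B4 (5301014 to 5301946) had 36 counts with the SMC1A guide and 20 with the control guide (log2 ratio 0.81, interval 0.01 to 1.71). OR51B5 (5303444 to 5505652) had 184 and 233 counts (-0.35, -0.63 to -0.06). The span of ENSG00000239920 contains both genes on the same strand.

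On that side, past the olfactory genes, lie genes of the tripartite motif family, of which TRIM5 and TRIM22 are known as antiviral restriction factors. All 3 that reached 20 counts were higher with the SMC1A guide. Over all genes with 20 counts the median log2 ratio was -0.007, and 9.55% were higher by 2-fold. TRIM6 (5596109 to 5612958) was at 17.0 CPM with the SMC1A guide and 6.21 CPM with the control guide, a log2 ratio of 1.44 (1.13 to 1.78). TRIM5 (5663557 to 5938619) was at 45.4 and 25.6 CPM, a log2 ratio of 0.82 (0.66 to 0.99). TRIM22 (5689689 to 5737089) had 74 counts with the SMC1A guide and 5 with the control guide, or 4.20 and 0.285 CPM, a log2 ratio of 3.64 (2.59 to 5.54). With 5 control counts this value moved with the settings, to 2.98 with a prior count of 5 and 3.01 with the expression trend removed. TRIM22 lies on the plus strand within the span of TRIM5 on the minus strand. The kit keeps strand, but the strand setting of the counting is not given, so reads from their overlap may not be separated. Below 20 counts, TRIM6-TRIM34, which overlaps TRIM6 on the same strand, had 17 counts with the SMC1A guide and 0 with the control guide. TRIM34 had 0 and 3. The span of ENSG00000239920 also contains TRIM6, on the opposite strand, and overlaps TRIM5 on the same strand. On the far side, past HBB, no gene reached 20 counts.

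**Figure D3:**
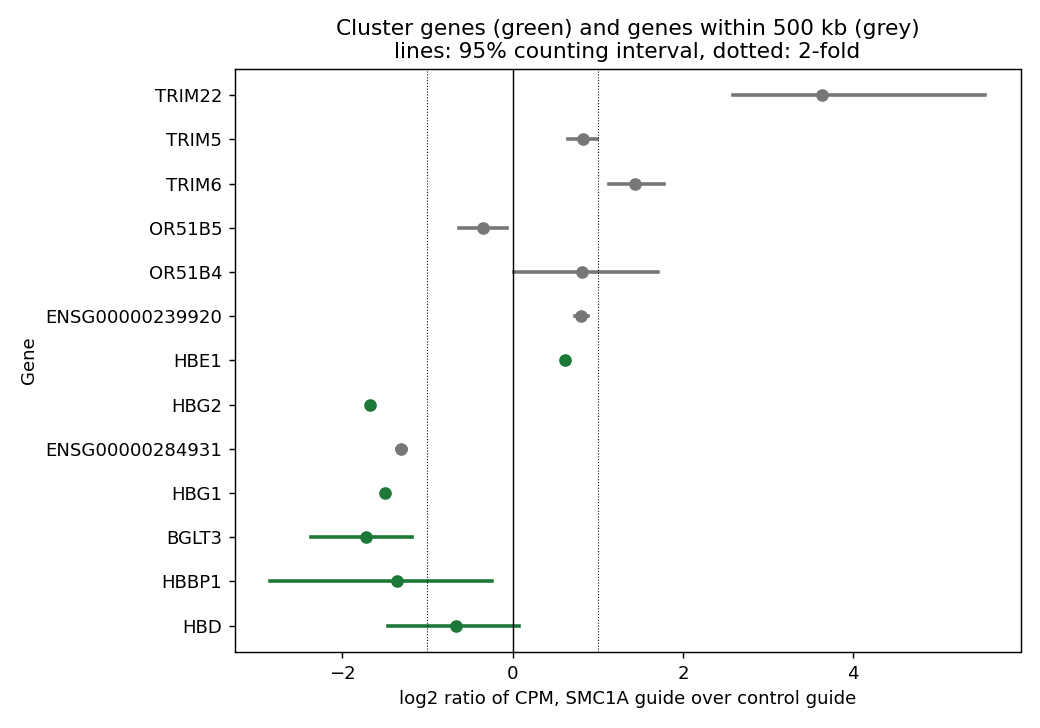
log2 ratio of CPM, SMC1A guide over control guide, for cluster genes (green) and for other genes within 500 kb that had at least 20 counts (grey), from the far TRIM genes at the top through the cluster to HBD at the bottom; lines are 95% counting intervals and dotted lines mark 2-fold. HBE1 lies at 0.62, and the genes from HBG2 to HBD lie between -1.73 and -0.66.

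HBE1, HBG2 and HBG1 were also set against other abundant RNAs. Of 61 genes with a mean of at least 1000 CPM over both libraries, 11 were mitochondrially encoded and 3 were HBE1, HBG2 and HBG1. HBG1 reached this mean only through the control library (574.6 CPM with the SMC1A guide and 1623 CPM with the control guide), so its place among the 61 is partly set by the filter. HBE1 had the highest log2 ratio of the 61, HBG2 the lowest and HBG1 the next. The median of the 61 was -0.33, and the others ran from -0.82 (NCL) to 0.50 (HSP90B1). Lower by 2-fold or more were 2 of the 61 (3.28%), which were HBG2 and HBG1 themselves, and 0 were higher by that factor (0%). By closeness of the log2 ratio over the 2 libraries, the abundant genes most like HBE1 were the endoplasmic reticulum chaperone genes HSP90B1 and CALR (0.50 and 0.46) and the ferritin gene FTH1 (0.29). Nearest to the fetal sum, but far from it, were the nucleolar protein genes NCL and NPM1 and the chaperone gene HSPA8, with differences in log2 ratio of 0.81, 0.87 and 0.97. Below the 1000 CPM limit the alpha-type genes HBZ (-1.56) and HBA1 (-1.76) lay closer to the fetal sum (-1.62) than any of these 3.

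**Figure D4:**
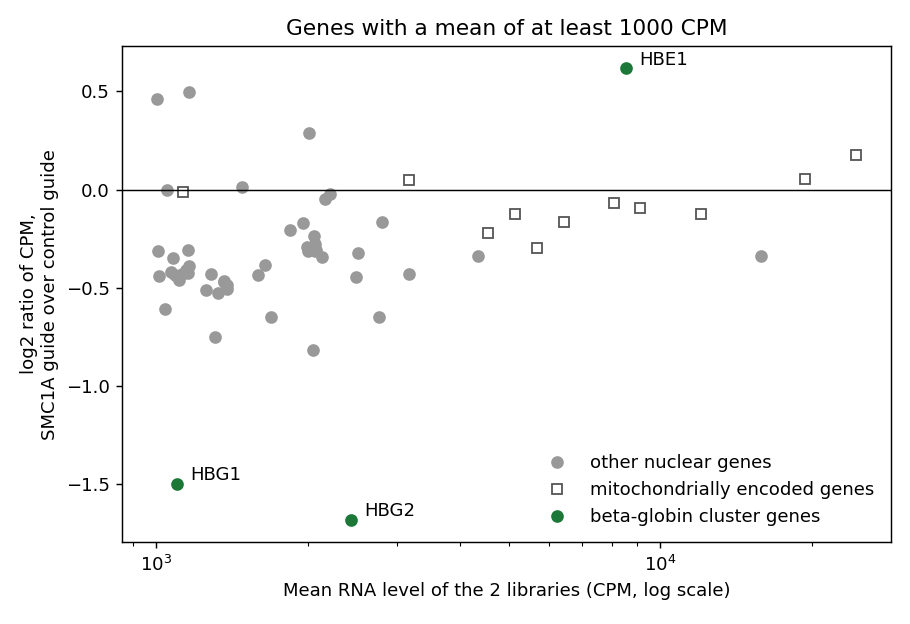
log2 ratio of CPM, SMC1A guide over control guide, against the mean level in CPM (log axis) for the 61 genes with a mean of at least 1000 CPM; squares are mitochondrially encoded genes. HBE1 is the highest point at 0.62, and HBG1 and HBG2 are the lowest at -1.50 and -1.68, with HBG1 past 1000 CPM only in the control library.

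The alpha-type partner chains come from a cluster on chromosome 16. The embryonic gene HBZ was lower, at 297.7 CPM with the SMC1A guide and 878.5 CPM with the control guide, so HBE1 counts per HBZ count were 34.8 with the SMC1A guide and 7.69 with the control guide. For every count of HBZ, HBA1 and HBA2 there were 19.2 counts of HBE1, HBG1 and HBG2 with the SMC1A guide and 5.86 with the control guide, a 3.27-fold difference. HBA1, HBA2 and HBQ1 had log2 ratios of -1.76, -2.29 and -0.88, and HBM had 0 counts in both libraries.

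Of a list of 37 genes whose products bind the beta-globin locus or affect the expression of its genes, 36 had at least 100 counts. Of these, 2 were lower by 2-fold (5.56%), 1 was higher by 2-fold (2.78%) and 28 had log2 ratios below 0 (77.8%). Over all genes with 100 counts, 2.31% were lower, 5.12% higher and 54.3% below 0. The share below 0 differed with level, and was 86.9% among the 61 genes with a mean of at least 1000 CPM. No listed gene reached that level. The median of the list was -0.17 and that of all genes -0.05. By library totals these medians were -0.05 for the list and 0.08 for all genes. The 2 lower genes were LMO2, an adaptor in the complex that bridges the enhancer and the globin promoters (-2.04), and MYB (-1.36), and the higher gene was the nuclear receptor gene NR2F2 (1.11). GATA1 was at -0.56, KLF1 at -0.32 and ZBTB7A, which encodes a repressor of the fetal genes, at -0.18. BCL11A, the other main fetal-gene repressor, had 3 counts in each library.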

How the data were processed

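Estimated counts of each gene, in whole numbers and not scaled between libraries, were deposited by the authors in 1 table. The tools named, without roles, per the submitters' processing notes are Salmon 1.10.1, STAR 2.7.10a and DESeq2 1.42.1, with the build hg38 (GRCh38). The annotation is not given in the sources used here. Per the labels' protocols, poly(A) RNA entered a directional kit and was sequenced as pairs of 100 bases. Reads that match several genes are divided between them by estimation, which affects HBG1, HBG2, HBE1 and the readthrough genes. It may also affect the few counts of HBBP1 and HBD, which share some windows with other genes.

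The members and lists were chosen with earlier results of these data known. All 62700 gene IDs matched the gene-name table, and 2 reporter rows entered only the library totals and scaling factors. For scaling, TMM factors were computed with edgeR 4.0.16 (R 4.3.3). The log2 ratios follow the edgeR formula with a prior count of 1. Intervals of ratios and shares are Clopper-Pearson, and those of levels exact Poisson. Reads were not tagged per molecule, so intervals do not cover PCR duplicates. Genes named are the 7 members, flanking genes with at least 20 counts, alpha-globin genes, listed regulators past 2-fold with 4 fixed ones, and the 3 abundant genes nearest in ratio. Python 3.11.15 with scipy 1.17.1 was used. The log2 ratios and the intervals of ratios were tested on simulated Poisson counts. That test did not cover the scaling factors or the division of reads between genes. Spans and exons beyond RefSeq's are from GENCODE release 29 (GRCh38), which may differ from the annotation behind the counts. Alternatives were 5 other scalings, prior counts of 0.25 and 5 and other filters; sums with the readthrough genes were added after seeing the data.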

Additional observations from a re-analysis of the deposited data

How the results depend on the processing

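With 1 library per guide, nothing beyond counting error could be measured, and counts under 100 (HBBP1, HBD) limit those genes most. No paired analysis was possible because each guide had 1 library, and no library could be left out. HBE1 stayed above 0 and the fetal sum at least 2-fold lower under all 5 other scalings and both prior counts. The log2 ratio of HBE1 was 0.74 by library totals, 0.63 by upper quartile and 0.94 with the expression trend removed. The fetal sum was at -1.49 by library totals, -1.31 with the trend removed and -1.59 with its readthrough gene. The cluster sum was at 0.13, 0.015 and 0.33 under library totals, upper quartile and trend removal, and at -0.031 with both readthrough genes. Library totals shifted the median of all genes by 0.13. The regulator list median was -0.046 by library totals and -0.052 with the trend removed. Under these settings the medians of all genes with 100 counts were 0.082 and -0.0052.

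The HBE1 share of the cluster's counts was 86.5% with the SMC1A guide and 57.4% with the control guide per kilobase of principal transcript, 86.5% and 57.2% per kilobase of exon union, and 82.4% and 52.7% over the members and both readthrough genes. The HBG1 share of the fetal pair was 28.1% with the SMC1A guide and 25.6% with the control guide per kilobase. Genes past 2-fold (579 higher, 262 lower) became 1361 higher and 517 lower at a minimum of 20 counts. They were 199 higher and 139 lower at a minimum of 500, and 3800 higher and 2713 lower without a minimum. Where the entire interval had to lie past 2-fold, 343 were higher and 142 lower. Of 203 values of 29 single genes, HBE1 not among them, under these alternatives, 170 stayed within their counting interval and 33 moved beyond it. The cause of these shifts was not tested.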
